A study of Mus musculus with 32 samples.

Results

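Interferon-stimulated genes are the genes that cells switch on when interferon binds its receptor. The group examined here was a list of 39 such genes, given by symbol with no threshold on measured values, of which 37 had counts in the files and 2, Irf9 and Igtp, were not analysed here. The 37 genes were set against 25041 genes in all. They were 4 sensors of foreign nucleic acid, 3 transcription factors, 21 antiviral effectors, 6 interferon-inducible GTPases, and 3 genes that were either chemokines or an immunoproteasome subunit. Female C57BL/6J mice of 6 to 7 months were injected intraperitoneally at circadian time ZT1, the animals called cisplatin with 10 mg per kg of cisplatin and those called control with the same volume of 154 mM saline, and kidney, liver, lung and spleen were taken at ZT5. A tag in the sample labels gives the treatment time as 2 h, which differs from these 2 clock times. RNA-seq covered 2 control and 2 cisplatin libraries per organ. Damage-seq, whose reads mark cisplatin adducts still in the DNA, and XR-seq, whose reads are the short oligomers cut out of the DNA during excision repair, covered 2 cisplatin libraries per organ and no control.

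Type I interferons signal through the kinases JAK1 and TYK2 to a complex that includes STAT2 and IRF9 and binds the interferon-stimulated response element (ISRE). Interferon gamma signals through JAK1 and JAK2 to genes that carry the gamma-activated sequence (GAS). The products block viral entry, copying and translation, present antigen and recruit lymphocytes, and many of these genes keep a basal level in uninfected tissue. DNA in the cytosol, sensed by cGAS and STING, is one known route to this program. Cisplatin crosslinks adjacent guanines (GG), and an adduct in the transcribed strand (TS) of an active gene stalls RNA polymerase and is removed by transcription-coupled repair, whereas adducts in the non-transcribed strand (NTS) depend on global repair.

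RefSeq promoters, from 250 bases before to 50 bases after the start in GRCm38.p6, were found for 28 of the 37 genes. The ISRE core GAAANNGAAA, searched on both strands, was present in at least 1 promoter of 17 of these 28 genes (60.7%) and in 3.44% of the 32851 promoters of all genes, where a gene may have more than 1 promoter. The GAS letters TTCNNNGAA, which read alike on both strands, were present in 8 of the 28 genes (28.6%) and in 8.3% of all promoters. The stretches below are those of the genes that had one of the 4 largest positive RNA differences in an organ and an ISRE core before the start. Each is written 5′ to 3′ on the strand of the gene, with the ISRE core in capitals.
Isg15 (chr4:156200855-156200916, minus strand): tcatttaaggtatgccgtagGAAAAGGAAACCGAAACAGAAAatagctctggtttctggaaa
Ifit1 (chr19:34640765-34640833, plus strand): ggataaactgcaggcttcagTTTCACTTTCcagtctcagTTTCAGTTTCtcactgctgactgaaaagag
Ifit3 (chr19:34583353-34583436, plus strand): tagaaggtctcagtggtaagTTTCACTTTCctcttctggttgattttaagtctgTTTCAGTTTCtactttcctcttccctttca
Rsad2 (chr12:26456543-26456592, minus strand): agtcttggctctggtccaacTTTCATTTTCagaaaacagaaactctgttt
Bst2 (chr8:71537567-71537622, minus strand): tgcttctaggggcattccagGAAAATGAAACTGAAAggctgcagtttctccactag
Cxcl10 (chr5:92349073-92349122, minus strand): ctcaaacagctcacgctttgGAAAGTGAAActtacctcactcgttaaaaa
Isg15 held 3 overlapping cores, the nearest starting 66 bases before its start site, and Bst2 held 2 overlapping cores starting 130 and 124 bases before it. Ifit1 and Ifit3 each held 2 separate cores. A match of letters is a description and not a measured binding site. Mx2, Oas2 and 7 others of the 37 genes were not in the promoter table.

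Reads counted on genes ranged from 15619474 to 162270280 per RNA-seq library, from 10658675 to 59779770 per XR-seq library and from 1571167 to 6441367 per Damage-seq library. The organ labels matched their marker genes: 4 kidney markers summed to 2350 to 3440 RPKM (reads per kilobase of exon, scaled to library size) in kidney and to at most 7.79 in the other organs, 4 liver markers to 47100 or more in liver and to at most 143 elsewhere, 4 lung markers to 81700 or more in lung and to at most 78.8 elsewhere, and 4 B cell markers to 865 to 994 in spleen and to at most 109 elsewhere. Cdkn1a, 1 of 3 p53 targets set as a check of the treatment labels, was higher in both cisplatin libraries than in both control libraries of each organ. In kidney it held 117 and 133 against 3.97 and 8.67 RPKM. Its fitted change was 20.1-fold in kidney, 8.41-fold in liver and 3.75-fold in lung. With Mdm2 and Phlda3, the changes were above 0 for 3 of 3 genes in kidney, liver and lung and for 2 in spleen. In the treatment test given below, 3 passed in kidney and 0 in liver, lung and spleen. The 2 control libraries of lung and those of spleen differed little more than read sampling allows, with a chi-square statistic per degree of freedom of 2.75 and 2.99, where the other pairs gave 39.3 to 349.6, and each of these pairs was counted as 1 sample. Their single control sample is therefore assumed in the fits to vary like the other groups. The study describes its replicates as biological, and the labels do not tie single libraries to animals, so p-values measure the spread between these libraries.

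Most of the 37 genes were lowest in kidney, and the largest number were highest in spleen. The median RPKM over the 37 genes lay between 2.9 and 3.98 in the 4 kidney libraries, between 6.84 and 11.1 in liver, between 7.3 and 10.0 in lung and between 10.9 and 17.2 in spleen. By the mean over 4 libraries, 28 genes had their lowest level in kidney, 18 had their highest level in spleen, 10 in liver, 8 in lung and 1 in kidney. Each organ was then compared with the mean of the other 3 organs in 1 fit of all RNA-seq groups (edgeR quasi-likelihood test with a minimum log2 difference of 0.4, Benjamini-Hochberg adjusted p under 0.05 over 18614 genes). In kidney 29 of 37 genes were lower and 0 higher, where 19.8% and 23.8% of all genes tested passed in these directions, the median log2 difference was −1.96, and the median of all genes was −0.06. The unadjusted count at p under 0.05 was also 0 higher in kidney and 0 lower in spleen, and DESeq2 was not run for levels. In spleen 23 were higher and 0 lower, against 31.6% and 23.0% of all genes, with a median of 0.96 against 0.14 for all genes. In liver 14 were higher and 6 lower, against 21.7% and 31.4% of all genes, and in lung 8 were higher and 6 lower, against 25.4% and 14.2%. These last counts rested on single libraries, with 3 lower in liver without the second control library, and 4 higher and 3 lower in lung without the second cisplatin library. In bulk tissue, more cells of a type that expresses a gene and more RNA per cell cannot be told apart, and the B cell and the T and NK cell markers were highest in spleen as well, with sums of 865 to 994 and 126 to 163 RPKM. Their part in the levels was not tested.

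**Figure D1:**
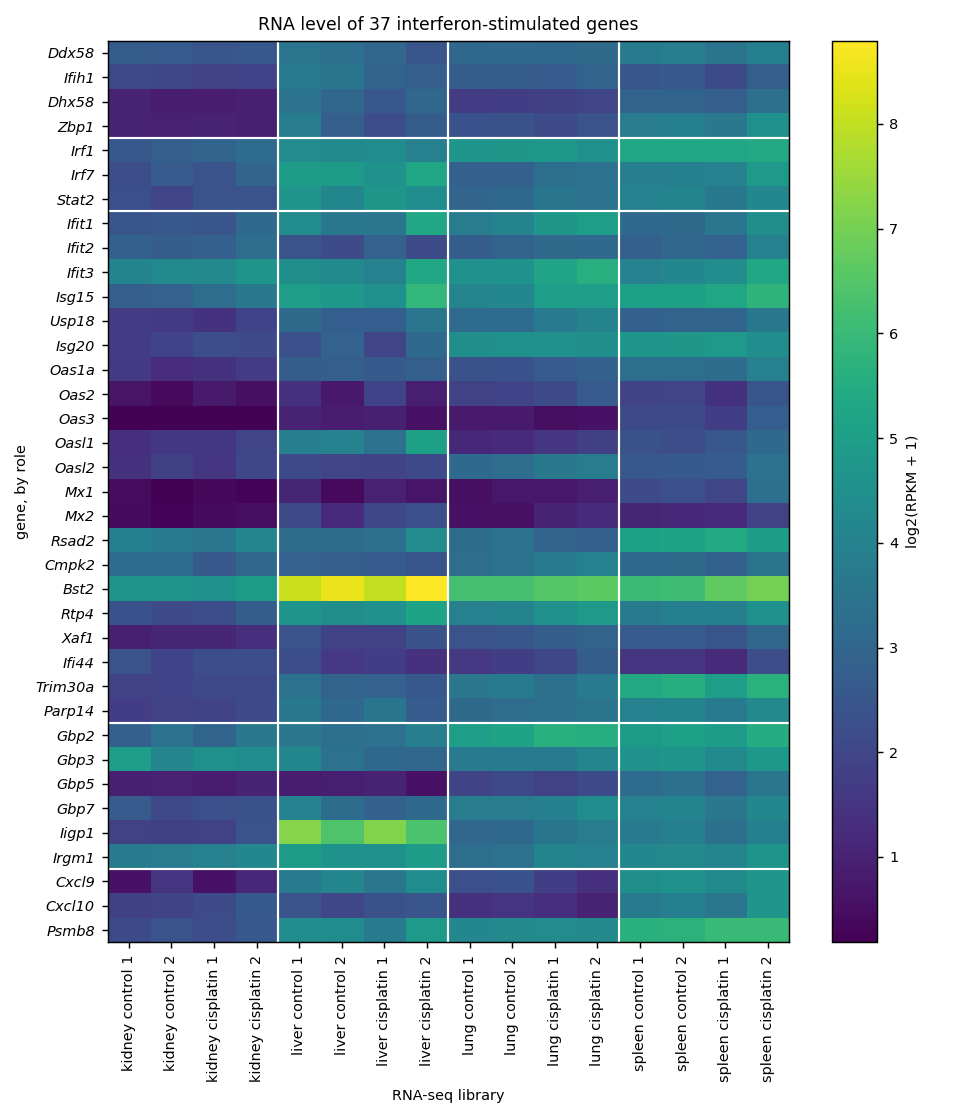
RNA level of each of the 37 genes (rows, by role: sensors, transcription factors, antiviral effectors, GTPases, and chemokines with the immunoproteasome subunit) in the 16 RNA-seq libraries (columns), as log2(RPKM + 1), with white lines between roles and organs. Kidney columns are the darkest for most rows, Bst2 and Iigp1 are brightest in liver, and Bst2 reached 443 RPKM in the second liver cisplatin library.

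Single genes departed from the order of the organs. Bst2, which tethers budding virions to the cell surface, was the most abundant of the 37 genes in liver, lung and spleen, and its 4 liver libraries held 274 and 371 RPKM in control and 253 and 443 RPKM in cisplatin. The other organs did not overlap with liver, at 64.9 to 128 RPKM in spleen, 74.1 to 98.3 in lung and 21.7 to 28.4 in kidney. Its level in liver was 2.62 ± 0.17 above the other organs on the log2 scale (SE), whereas lung (−0.11 ± 0.20) and spleen (0.03 ± 0.20) did not pass. Iigp1, a GTPase that attacks the vacuoles of intracellular parasites, stood at 81.1 to 148 RPKM in liver against 2.5 to 14.0 in all 12 libraries of the other organs, a log2 difference of 4.07 ± 0.23. Oasl1, a 2′-5′ oligoadenylate synthetase-like protein that restrains Irf7 translation, was likewise highest in liver, at 9.86 to 32.8 RPKM, with a log2 difference of 2.81 ± 0.27.

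The genes highest in spleen included antigen processing, chemokine and antiviral genes. Psmb8, a catalytic subunit of the immunoproteasome, held 49.5 to 64.6 RPKM in spleen and 12.4 to 27.4 RPKM in liver, which overlapped with lung (16.9 to 19.4). Trim30a, a regulator of inflammatory signalling, held 30.7 to 50.2 RPKM in spleen and at most 12.5 RPKM in the libraries of the other organs, a log2 difference of 2.82 ± 0.16. Mx1, a gene of the dynamin-like GTPases, was low in all organs and highest in spleen (2.96 to 9.06 RPKM against at most 1.12 elsewhere). Cxcl9 and Cxcl10, chemokines that draw T cells through the receptor CXCR3, were 2.67 ± 0.31 and 2.54 ± 0.23 higher in spleen on the log2 scale, and Cxcl10 had its lowest value in lung (log2 difference −2.01 ± 0.31).

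Some genes were high in both lung and spleen. Gbp2, a guanylate-binding GTPase of cell-autonomous defence, held 31.2 to 49.6 RPKM in lung, overlapping with 28.7 to 44.7 RPKM in spleen, and both organs passed against the rest (log2 differences of 1.43 ± 0.21 and 1.17 ± 0.21). Isg20, an exonuclease that degrades viral RNA, showed the same pair of organs, with 1.54 ± 0.25 in lung and 1.87 ± 0.24 in spleen. In kidney the highest 3 genes were Bst2, Gbp3 and Ifit3, with means over the 4 libraries of 24.4, 22.3 and 19.1 RPKM. Gbp3 differed from most of the list, with 16.2 to 31.4 RPKM in kidney and 18.1 to 26.5 in spleen, and it did not pass in kidney (0.53 ± 0.20).

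Cisplatin against control addressed whether the drug changed these genes within the same morning. No gene of the 37 passed in any organ, in either direction, in the edgeR test used for levels, at an adjusted p under 0.05. Called higher were 0 of 37 in kidney, where 2.41% of 15462 genes were called higher, 0 in liver, where 0.0% of 13862 genes were, 0 in lung, where 0.0% of 17007 genes were, and 0 in spleen, where 0.144% of 16723 genes were. Called lower were 0 in each organ, where 2.65%, 0.0%, 0.417% and 0.0299% of all genes were. DESeq2 with the same threshold also called 0 of the 37 in each organ. The lung count depended on the summed control pair: when each lung control library was counted as a replicate, in a fit of lung alone, 4 genes were called higher (Isg15, Ifit1, Mx2 and Rtp4, adjusted p between 0.015 and 0.0487 in edgeR) and 0 lower, where 1.56% and 7.89% of all genes were. In liver, the fit without the first cisplatin library left 1 cisplatin sample. The log2 values of Ifit1, Oasl1 and Rsad2 were then 1.4, 1.26 and 1.24, against 0.75, 0.64 and 0.81 in the full fit. At an unadjusted p under 0.05 against a change of 0, Isg15 and Cxcl10 were higher in kidney and Ifih1 was lower in liver, and 0 were counted in lung and in spleen. The unadjusted share of all genes was 13.0% higher and 15.4% lower in kidney, whereas liver had 4.05% and 7.45%, lung 1.33% and 8.32%, and spleen 1.33% and 2.46%. The absence of a call does not show that levels were equal, since standard errors of single genes ranged up to 0.77 in log2.

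The fitted changes were mostly small and positive in 3 organs. Over the 37 genes the median log2 fold change in kidney, liver, lung and spleen was 0.28, 0.08, 0.29 and 0.23, whereas the medians of all genes tested were 0.0, 0.06, 0.02 and −0.06. Values above 0 were found for 29, 24, 28 and 25 of the 37 genes, against 49.8%, 54.0%, 52.0% and 43.7% of all genes. At or above 0.4 were 10, 9, 18 and 11 genes, against 24.2%, 26.3%, 18.5% and 13.9% of all genes, so that 18 of 37 in lung was the largest of these counts. In kidney, liver and spleen the 2 cisplatin libraries did not carry the medians equally. In spleen, 35 of 37 genes lay above the control mean in the second cisplatin library and 13 of 37 in the first, and the median was −0.21 without the second cisplatin library and 0.47 without the first. In liver the median was −0.24 without the second and 0.10 without the first, and in kidney it was 0.05 without the second and 0.33 without the first. In lung, 29 genes lay above the control mean in the first cisplatin library and 31 in the second, and the median was 0.32 without the second and 0.43 without the first.

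The difference between the 2 cisplatin libraries had the same direction in the 4 organs. The second library exceeded the first for 30 of 37 kidney genes, 22 liver genes, 26 lung genes and 34 spleen genes, where 54.1%, 48.1%, 58.3% and 61.6% of all genes did so, and the median log2 differences were 0.39, 0.31, 0.24 and 0.70. Between the control libraries the same counts were 20, 6, 33 and 35, against 52.5%, 48.7%, 71.1% and 76.7% of all genes, with medians of 0.01, −0.33, 0.07 and 0.09. The labels do not say whether libraries of different organs with the same number came from 1 animal. The paper adjusted its data for a known batch, which the labels do not name. The second library was also the deeper of each cisplatin pair, and the part of depth was not tested.

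**Figure D2:**
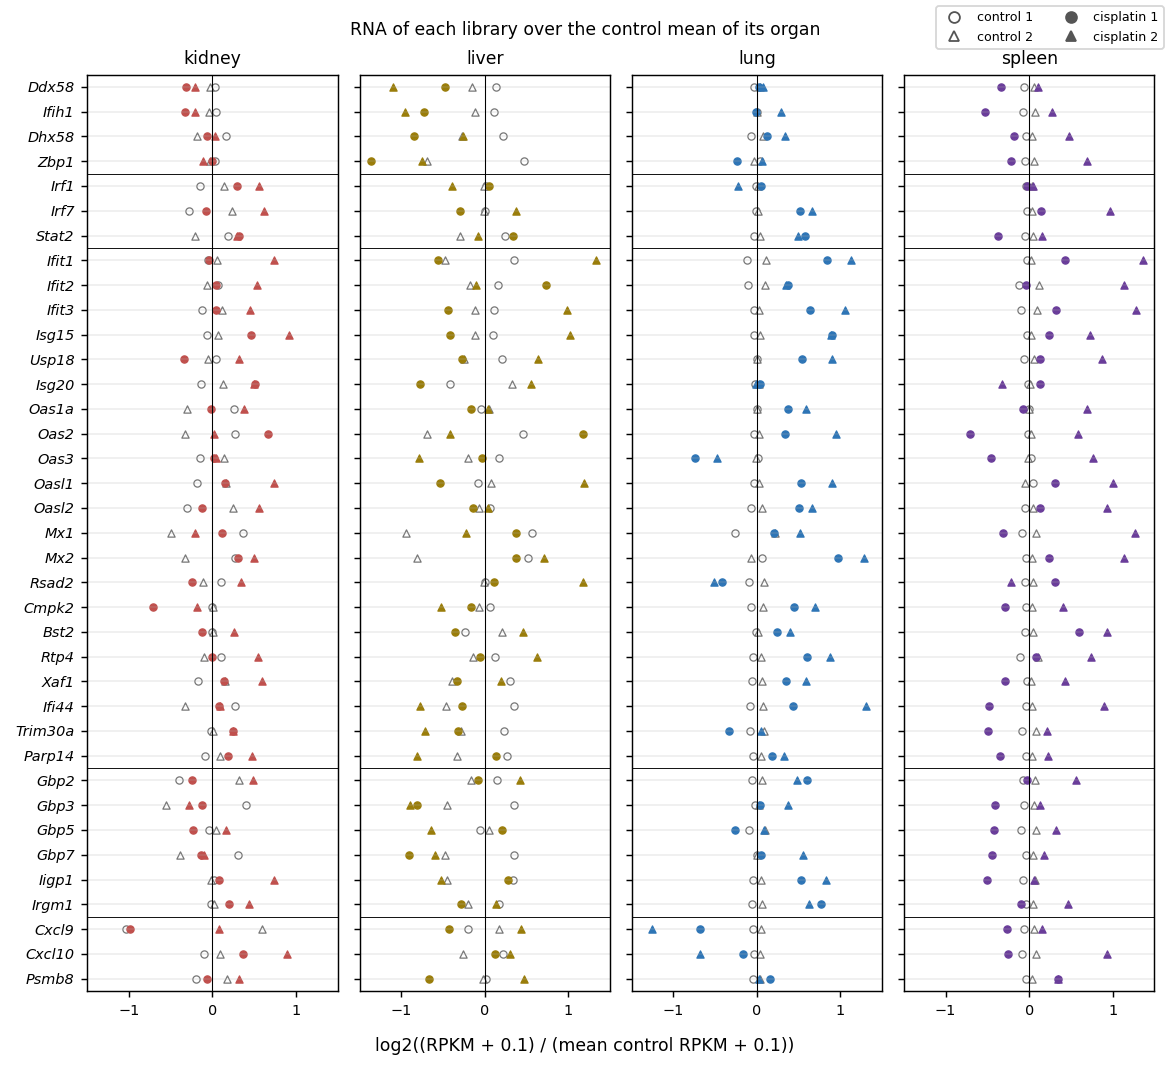
Level of each of the 37 genes in every RNA-seq library over the mean of the 2 control libraries of its organ, as log2 of RPKM with 0.1 added, in 1 panel per organ (open symbols, control; filled symbols, cisplatin; circles, replicate 1; triangles, replicate 2; lines separate the roles). In spleen the filled triangles lie to the right of the filled circles for 34 of 37 genes, and in lung the open symbols sit close together.

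Among the sensors, Ifih1 (MDA5) and Ddx58 (RIG-I) detect viral RNA and Zbp1 detects left-handed nucleic acid. Ifih1 held 12.3 and 10.5 RPKM in the control liver libraries and 6.84 and 5.85 RPKM in the cisplatin liver libraries. Ddx58 held 10.9 and 8.97 against 7.09 and 4.57 RPKM in liver. Zbp1 held 13.3 and 5.88 against 3.67 and 5.67 RPKM. In all 3 the cisplatin libraries lay below the control libraries, with log2 fold changes of −0.77 ± 0.31, −0.69 ± 0.35 and −0.96 ± 0.47 (adjusted p = 0.668, 0.803 and 0.732, edgeR), none of which passed. The value of Zbp1 was −0.26 without the first control library and −1.45 without the second, and that of Ddx58 ranged from −1.07 to −0.45 when 1 library was left out. In kidney Ifih1 and Ddx58 were both among the 4 most negative genes at −0.24, in spleen Ddx58 was at −0.16, and in lung the 4 sensors lay between −0.10 and 0.19. Both cisplatin libraries lay below both controls for 7 of 37 genes in liver, a smaller share than the 25.2% of all genes that did so, and above them for 1 gene, Rsad2, against 16.8% of all genes.

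The transcription factors that amplify the program were not called. Irf7, the main inducer of interferon alpha genes, held 6.02 and 6.15 RPKM in control lung and 8.77 and 9.7 RPKM in cisplatin lung, and 13.5 and 14.1 against 15.2 and 27.2 RPKM in spleen, where the second library stood apart. Its log2 fold changes were 0.57 ± 0.42 and 0.56 ± 0.42. Stat2, a subunit of the complex that binds the ISRE, held 6.91 and 7.26 against 10.6 and 10.0 RPKM in lung. Irf1, which interferon gamma induces through a GAS, held 4.9 and 6.0 against 6.69 and 8.06 RPKM in kidney, at 0.46 ± 0.20. These were the organs with the most positive values. Irf7 was at 0.35 and 0.15 in kidney and liver. Stat2 was at 0.34, 0.22 and −0.15 in kidney, liver and spleen, and Irf1 at −0.07, −0.11 and −0.05 in liver, lung and spleen.

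The genes whose promoters are printed were picked for their positive values, which are given next. Isg15, a ubiquitin-like modifier that is attached to host and viral proteins (chromosome 4, 156199424 to 156200818, minus strand, mm10), held 5.9 and 6.45 RPKM in control kidney and 8.51 and 11.8 RPKM in cisplatin kidney. In lung it held 16.2 and 17.1 against 31.1 and 30.9 RPKM. In both organs the groups did not overlap, with log2 fold changes of 0.75 ± 0.28 in kidney (adjusted p = 0.329, edgeR) and 0.86 ± 0.49 in lung (adjusted p = 1.0). In spleen its values were 31.8 and 32.7 against 37.9 and 53.7 RPKM, and in liver 31.1 and 26.7 against 21.6 and 58.6 RPKM, so that the liver groups overlapped.

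Ifit1, which binds viral RNA that lacks the host cap methylation (chromosome 19, 34640871 to 34650009, plus strand), held 13.2 and 15.4 RPKM in control lung and 25.7 and 31.3 RPKM in cisplatin lung. In spleen it held 7.75 and 8.05 against 10.7 and 20.5 RPKM, and in liver 20.2 and 11.3 against 10.7 and 39.9 RPKM. The groups did not overlap in lung and spleen and overlapped in liver, where the fitted log2 fold change of 0.75 ± 0.60 became 1.40 without the first cisplatin library and −0.52 without the second. In lung and spleen it was 0.91 ± 0.69 and 0.93 ± 0.69, and in spleen it was 0.41 without the second cisplatin library. Ifit3, a partner of Ifit1 in the same cluster on chromosome 19, held 15.0 and 17.1 against 20.1 and 39.2 RPKM in spleen, at 0.81 ± 0.54, and 22.5 and 23.5 against 35.7 and 47.9 RPKM in lung, at 0.82 ± 0.54. The spleen value of Ifit3 was 0.28 without the second cisplatin library. The Ifit genes are close paralogs, and reads that fit several of them could be lost or divided in counting.

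Mx2, a relative of Mx1 that the annotation classes as a polymorphic pseudogene (chromosome 16, 97535308 to 97560900, plus strand), had the largest fitted change of the list in lung. It held 0.531 and 0.475 RPKM in control lung and 1.08 and 1.37 RPKM in cisplatin lung, at a log2 fold change of 1.29 ± 0.62 (adjusted p = 0.809, edgeR). In spleen it held 1.12 and 1.19 against 1.38 and 2.67 RPKM (0.75 ± 0.60), and in kidney 0.349 and 0.196 against 0.36 and 0.425 RPKM (0.59 ± 0.50). The lung cisplatin libraries stood clearly above the control pair, which was counted as 1 sample. In kidney the lowest cisplatin library and the highest control library nearly met. The spleen value of Mx2 was 0.22 without the second cisplatin library and 1.13 without the first, and the kidney value was 0.20 without the second control library and 1.04 without the first. Ifi44, an interferon-induced protein of the cytoplasm, held 2.08 and 2.34 against 3.02 and 5.63 RPKM in lung, at 0.90 ± 0.59, or 0.41 without the second cisplatin library.

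Rsad2 (viperin), which makes a chain-terminating nucleotide, had values of opposite sign in liver and lung. It held 8.38 and 8.32 RPKM in control liver and 9.04 and 19.0 RPKM in cisplatin liver, at 0.81 ± 0.40, and 8.47 and 9.56 against 6.71 and 6.29 RPKM in lung, at −0.54 ± 0.41. The difference between these 2 organs was 1.32 ± 0.53 in log2 (unadjusted p = 0.0305, adjusted p = 0.624, edgeR interaction test), which did not pass. The liver value was 0.15 without the second cisplatin library and 1.24 without the first. Its neighbour Cmpk2, a mitochondrial nucleotide kinase, held 8.22 and 8.26 against 4.98 and 7.22 RPKM in kidney, the most negative value there (−0.40 ± 0.22).

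Bst2 held 64.9 and 69.0 RPKM in control spleen and 101 and 128 RPKM in cisplatin spleen, at 0.71 ± 0.36 (adjusted p = 1.0, edgeR). The oligoadenylate synthetases make the messenger that activates RNase L. Oas2, which is one of them, and the synthetase-like Oasl1 were among the 4 highest values of liver, with 1.66 and 0.691 against 2.78 and 0.858 RPKM and with 13.5 and 15.1 against 9.86 and 32.8 RPKM. In each of these 2 genes 1 cisplatin library was high and the other lay among or below the controls. Oas3 held 0.769 and 0.757 against 0.415 and 0.521 RPKM in lung, at −0.73 ± 0.49. Isg20 held 2.29 and 2.76 against 3.63 and 3.6 RPKM in kidney, at 0.54 ± 0.27.

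Some GTPases and chemokines had negative values. Gbp3 held 16.8 and 9.59 RPKM in control liver and 7.46 and 7.07 RPKM in cisplatin liver, at −0.78 ± 0.37 (−0.33 without the first control library), and in spleen Gbp3, Trim30a and Iigp1 lay between −0.17 and −0.26 with overlapping groups. Cxcl9, which interferon gamma induces, held 3.83 and 4.08 against 2.42 and 1.59 RPKM in lung, at −1.03 ± 0.62, and Cxcl10 held 1.68 and 1.76 against 1.52 and 1.03 RPKM, at −0.48 ± 0.47. In kidney Cxcl9 held 0.514 and 1.8 against 0.533 and 1.23 RPKM, with wide overlap, whereas Cxcl10 held 2.54 and 2.9 against 3.52 and 5.16 RPKM, at 0.70 ± 0.28 (adjusted p = 0.367, edgeR). Cxcl10 lies wholly inside the gene Art3 on the opposite strand, and the RNA-seq library was not stranded. Strand therefore cannot tell the RNA reads of the 2 genes apart, and overlap of their exons was not checked. Opposite genes also cover 57.3% of Psmb8 and 62.8% of Usp18.

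More of the 37 genes had no overlap between the groups in lung than in the other organs. The control pairs of lung and of spleen were counted as 1 sample each, and controls that lie close together make such gaps easier. These counts therefore do not rank the organs. In lung, 24 of 37 genes had both cisplatin libraries above both controls and 4 below, where 37.1% and 31.0% of all genes did so. In kidney these counts were 10 and 3, against 26.2% and 30.1%, and in spleen 10 and 0, against 29.5% and 30.1%. Some markers of other cell types passed the treatment test in lung and spleen. In kidney and liver no marker passed, but the 4 B cell markers had median log2 fold changes of −1.14 and −0.7. The 4 lung markers had a median of 1.99 in liver. In lung the 3 high endothelial venule markers summed to 59.3 and 63.7 RPKM in control and to 4.61 and 3.37 in cisplatin. The control sum was mostly Glycam1 (54.4 and 58.4 against 0.125 and 0.0327), whereas Chst4 held 4.85 and 5.25 against 4.48 and 3.33. The 4 B cell markers summed to 104 and 109 RPKM in control and to 34.6 and 26.5 in cisplatin. The 6 T and NK cell markers summed to 34.2 and 33.0 against 14.8 and 10.9, and the 4 neutrophil markers to 56.9 and 63.4 against 104 and 152. Of these, 1 of 6 T and NK cell markers, 1 of 4 B cell markers and 1 of 3 high endothelial venule markers passed as lower. In lung 0.417% of all genes passed in this direction. In both control libraries 1 of the venule markers was at 0. In spleen the 4 pancreas markers summed to 0.112 in both controls and to 734 and 568 RPKM in cisplatin. All 4 were called higher, where 0.144% of all genes were. The neutrophil markers of spleen summed to 454 and 492 against 601 and 987 RPKM. The part of these cell types in the values of the 37 genes was not tested.

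No difference in response between 2 organs passed for any of the 37 genes. Of the 6 pairs of organs, 0 genes were called in each, in the edgeR quasi-likelihood test of the interaction against 0, where between 0.0% and 0.34% of all genes were called. At an unadjusted p under 0.05, Rsad2 and Ifih1 were counted for liver against lung and 0 for the other pairs. DESeq2 was not run for this comparison.

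The rest of the pathway was read from a fixed list of 40 genes, 34 of which had counts. Of 10 interferon genes on that list, 4 had counts and 6 were not analysed here. The 4 were at or near 0: Ifnb1 had 0 reads in 14 of 16 libraries and 8 reads in all, Ifna2 and Ifnl3 had 0 reads in 15 of 16 libraries, and Ifnk had at most 8 reads in a library. A level of 3 reads would correspond to between 0.0247 and 0.256 RPKM for Ifnb1, depending on the library, which limits what these libraries could detect (counting error alone). Of the pathway genes tested, 1 of 30 was called higher in kidney, near the 2.41% of all genes called higher there. In liver 0 of 29 and in lung and spleen 0 of 30 were called higher, where 0.0%, 0.0% and 0.144% of all genes were. In each organ 0 were called lower, against 2.65%, 0.0%, 0.417% and 0.0299% of all genes in kidney, liver, lung and spleen. The 1 gene was Socs3, a feedback inhibitor of cytokine receptors, at 0.754 and 1.61 RPKM in control kidney and 5.37 and 7.13 RPKM in cisplatin kidney, a 5.29-fold difference (log2 2.40 ± 0.39, adjusted p = 0.0308). Interleukin 6 family cytokines also induce it. At an unadjusted p under 0.05, 5 of 30 were higher and 5 lower in kidney, where 13.0% and 15.4% of all genes were. In lung 3 were lower, against 8.32%, and 0 were counted in liver and in spleen. The kidney and lung counts were near the shares of all genes, so the genes named next do not set the pathway apart. Beside Socs3, the kidney genes higher at that level were Cgas, the DNA sensor, at 0.0704 and 0.185 against 0.585 and 0.373 RPKM (log2 1.83 ± 0.60), the adaptors Ticam1 (1.12 ± 0.33) and Myd88 (0.60 ± 0.18), and Ifngr1, a chain of the interferon gamma receptor (0.71 ± 0.16). The lower ones were the kinases Jak1, Jak2 and Tyk2 (−0.52 ± 0.16, −0.63 ± 0.19 and −0.73 ± 0.21), Irf2 (−1.03 ± 0.26) and Pias1 (−0.73 ± 0.18). In lung they were Irf8, a factor of myeloid and B cells (−0.95 ± 0.25), Irf2 (−0.75 ± 0.32) and Tlr9 (−1.52 ± 0.55). Apart from Socs3, none of these passed the adjusted test. Of 37 measured genes in a second list of interferon-stimulated genes, 0 were called in each organ, with medians of 0.16, 0.10, 0.22 and 0.04 in kidney, liver, lung and spleen.

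Excision repair of the 37 genes lay mainly on the transcribed strand. In XR-seq, reads on TS and NTS were compared within each library per GG on that strand (edgeR, the same minimum of 0.4 for the log2 ratio, 20682 genes). TS exceeded NTS in 27 of 37 kidney genes, 28 liver genes and 31 genes of both lung and spleen, where 53.8%, 48.2%, 56.8% and 55.4% of all genes passed in this direction. Without the first or the second liver library, the liver count was 15 or 17. NTS exceeded TS in 0 of the 37 genes in each organ, against 5.93%, 6.77%, 7.16% and 6.74% of all genes, also at an unadjusted p under 0.05, and no other tool was run for this. The median log2 ratio over the 37 genes was 3.25, 3.75, 4.32 and 4.49, and over all genes 2.5, 1.88, 2.88 and 2.84. In 23 of the 37 genes TS passed in all 4 organs, as it did in 42.4% of all genes. Isg15 had 49 and 118 TS reads and 0 NTS reads in the spleen libraries, so that no ratio is given for it. Summed over the 37 genes, TS per GG exceeded NTS per GG 5.18 and 4.88 times in the 2 kidney libraries, 7.68 and 6.76 times in liver, 9.38 and 8.78 times in lung and 8.12 and 7.66 times in spleen. The same sum over the other genes gave 5.78 and 5.79, 5.89 and 5.24, 9.14 and 8.8, and 7.84 and 7.76, so that the sums of the 37 genes exceeded those of the other genes in both libraries in liver and not in both libraries of the other organs.

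The RNA sensors were strongly one-sided. Ifih1 (chromosome 2, 62595798 to 62646255, minus strand) had 1060 TS and 41 NTS reads and 1110 and 57 in the kidney libraries, 5365 and 114 and 3889 and 216 in liver, 5598 and 46 and 3923 and 85 in lung, and 737 and 41 and 2163 and 67 in spleen. TS was the higher strand in all 8 libraries, and the log2 ratios per GG were 4.45 ± 0.52, 4.82 ± 0.52, 6.17 ± 0.56 and 4.57 ± 0.52. Ddx58 had a weaker excess, between 2.11 ± 0.22 in kidney and 4.16 ± 0.24 in lung. Of the GTPases, Gbp7 had 230 TS and 58 NTS reads and 362 and 16 in kidney, and 2013 and 31 and 1530 and 60 in lung, with ratios of 3.25 ± 0.89 and 5.40 ± 0.94.

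The exceptions were 4 genes, Irf7, Usp18, Cxcl9 and Cxcl10, in which TS did not pass in any organ. Irf7 had among the highest TS values of the list, between 62.6 and 84.2 RPM (reads scaled to the library total) per 1000 GG over the 8 libraries, and had 476 TS and 266 NTS reads and 547 and 594 in kidney, and its log2 ratios lay between 0.30 ± 0.27 and 0.77 ± 0.26. Usp18, the protease that removes Isg15 and damps the receptor, had 3096 TS and 1529 NTS reads and 2021 and 1524 in lung, with log2 ratios between −0.47 ± 0.23 and 0.62 ± 0.22. A long noncoding RNA, Gm44148, runs on the opposite strand over 62.8% of Usp18, and Phrf1 overlaps 45 bp of Irf7 on the opposite strand. A strand that is NTS for one gene is TS for a gene facing it, and reads within such an overlap cannot be told apart. An opposite gene overlapped 11 of the 37 genes, from 0.19% of the length of Trim30a to 100% of Cxcl10, and 1.19% of Irf7. Cxcl9 and Cxcl10 had few reads, with at most 175 TS reads for Cxcl9, in the first liver library, and 0 on TS in the first kidney, lung and spleen libraries. Ifit1 stood apart in kidney, with 28 TS and 71 NTS reads and 88 and 140, a log2 ratio of −1.05 ± 0.54 that did not pass, whereas TS passed in the other 3 organs.

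**Figure D3:**
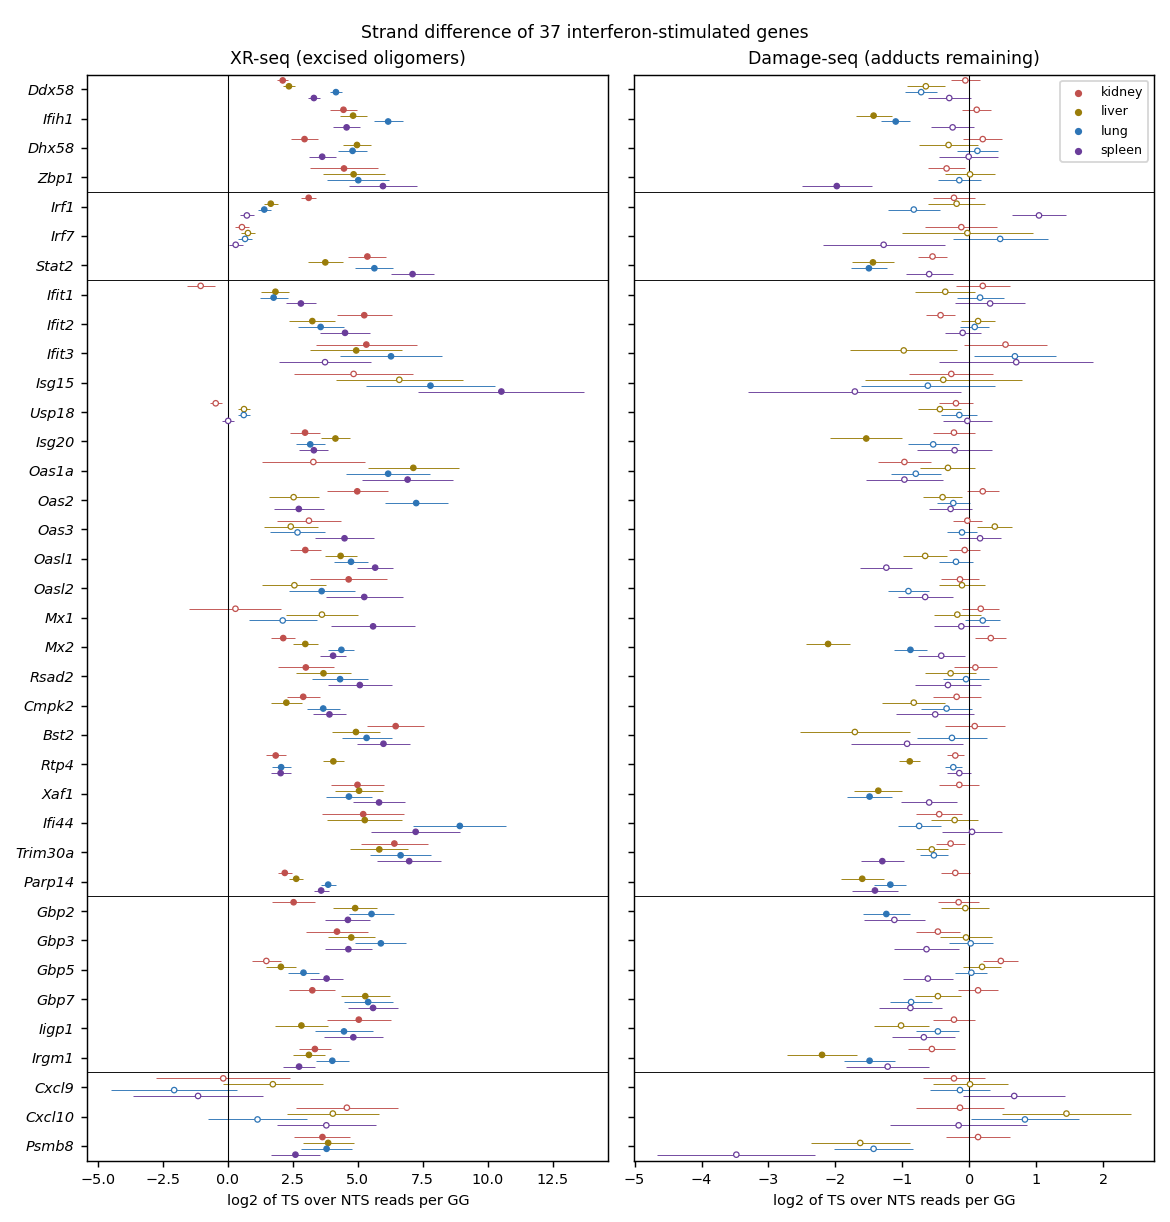
Strand ratio (log2 of TS over NTS, both per GG) of each of the 37 genes (rows, by role) in XR-seq (left) and Damage-seq (right), 1 point per organ with bars of 1 SE from the edgeR fit of 2 libraries; filled points passed at an adjusted p under 0.05. Most XR-seq points lie far above 0, Irf7 and Usp18 lie near 0 in all organs, and most Damage-seq points lie below 0, with the filled ones in liver, lung and spleen. The spleen point of Isg15 in XR-seq was fitted against 0 NTS reads and gives no size of the ratio.

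Excision on the transcribed strand differed between organs. For TS reads compared between an organ and the mean of the other 3 (edgeR, TMM, 19717 genes), 0 of 37 genes were higher and 26 lower in kidney, where 10.4% and 10.3% of all genes passed, 14 were higher and 5 lower in liver, against 21.2% and 14.7%, 6 were higher and 1 lower in lung, against 7.67% and 10.4%, and 7 were higher and 1 lower in spleen, against 9.43% and 10.1%. In kidney 0 were higher by DESeq2 and at an unadjusted p under 0.05 as well. Without the first liver library 8 genes were higher in liver, and without either lung library 3 were higher in lung, where DESeq2 also gave 3. Medians were −1.47, 0.66, 0.40 and 0.42, and those of all genes 0.0, 0.08, −0.02 and 0.02. Scaling by library size alone moved the median of all genes from 0.0 to 0.23 in kidney and from 0.08 to −0.17 in liver, and the median of the 37 genes was then −1.24 in kidney and 0.41 in liver, where 8 genes were higher. TS values summed over the 37 genes were 13.4 and 12.1 RPM per 1000 GG in kidney, whereas liver had 27.9 and 26.5, lung 25.9 and 25.6, and spleen 25.3 and 25.7. The other genes were at 14.1 to 15.2 in all 8 libraries, so that kidney alone had sums of the 37 genes below those of the other genes.

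The genes called by RNA level and by excision overlapped in part. In kidney, 22 genes were lower in both, which is 75.9% of those lower in RNA and 84.6% of those lower in XR-seq. In liver 9 genes were higher in both, 64.3% of each list. In spleen 6 were higher in both, 26.1% of the genes higher in RNA and 85.7% of those higher in XR-seq, and in lung 4, which is 50.0% and 66.7%. Over the 17406 genes in both fits, the same shares were 34.9% and 59.9% for lower in kidney, 45.3% and 45.6% for higher in liver, 28.8% and 81.4% for higher in spleen, and 27.5% and 82.7% for higher in lung. The differences had the same sign in 33, 25, 27 and 25 of 37 genes in kidney, liver, lung and spleen, against 64.9%, 56.5%, 57.4% and 66.4% of all genes. The Spearman correlation across the 37 genes was 0.445, 0.419, 0.572 and 0.485, and across all genes 0.526, 0.409, 0.342 and 0.59, given without a test because genes are not replicates and share libraries. In liver Stat2 was higher in RNA (log2 1.52 ± 0.15) and lower in TS excision (−0.99 ± 0.12), and Trim30a was lower in RNA (−0.67 ± 0.17) and higher in TS excision (0.87 ± 0.16).

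The genes of each organ differed in their extremes. In liver, Rtp4, a chaperone of taste and opioid receptors that interferon induces, had 9047 and 5997 TS reads, or 34.1 and 28.3 RPM per 1000 GG, against 1.14 to 3.65 in the 6 libraries of the other organs. Its log2 difference in liver was 4.17 ± 0.12 in excision and 1.30 ± 0.17 in RNA. The gene model of Rtp4 spans 93932 bp, and the transcript Gm45338 covers 42.4% of it on the same strand, so that excision on the 2 cannot be told apart. Cxcl9, also higher in liver at 3.63 ± 1.30, rested on 175 and 71 TS reads. In spleen, Mx1 had 142 and 606 TS reads, or 14.6 and 19.2 RPM per 1000 GG, against 0.0 to 5.35 in the other 6 libraries, a log2 difference of 3.72 ± 0.52. Oas3 followed, with 12.5 and 20.2 in spleen against 0.895 to 2.11 elsewhere (3.39 ± 0.24), and then Gbp5, an assembly factor of the inflammasome, with 30.9 and 23.2 against 2.42 to 12.7 (2.30 ± 0.18). In lung, Oasl2 and Oas2 led, at 1.62 ± 0.20 and 1.60 ± 0.21, with 42.2 and 36.5 for Oasl2 against 6.77 to 24.7 elsewhere.

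Within an organ, a few genes had the highest TS values per GG. Bst2, whose ISRE cores are printed above, was highest in liver, lung and spleen, with means over the 2 libraries of 95.0, 84.8 and 91.4 RPM per 1000 GG, and had 37.6 and 36.0 in the kidney libraries. Irf7 was highest in kidney, at 84.2 and 63.8, followed by Stat2 (52.0 and 45.6) and Irf1 (40.4 and 51.1). At the low end in kidney were Mx1 (0 and 15 TS reads), Cxcl9 (0 and 12) and Oas3 (32 and 50). The first kidney library had 0 TS reads for 3 of the 37 genes and 0 NTS reads for 18, whereas the second kidney library had 0 genes without TS reads and 0 without NTS reads, with totals of 18406613 and 27921971 reads on genes. Gbp3 had 1 TS read in the first kidney library and 143 in the second.

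**Figure D4:**
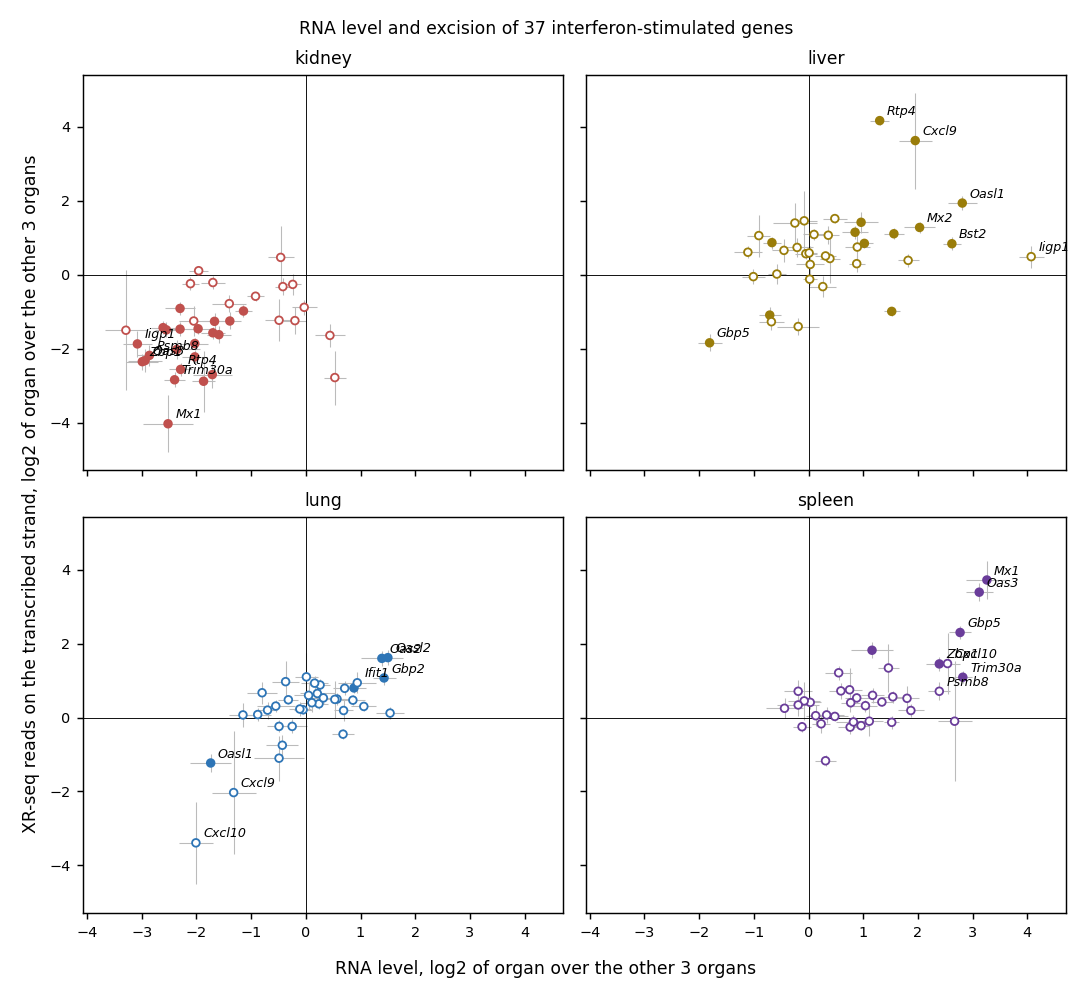
RNA level (horizontal axis) and TS reads of XR-seq (vertical axis) of each of the 37 genes in 1 organ over the mean of the other 3, both as log2 with bars of 1 SE, in 1 panel per organ; filled points passed in both. In kidney most points lie in the lower left, in liver Rtp4 and Cxcl9 lie high, and in spleen Mx1, Oas3 and Gbp5 lie in the upper right.

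Strand differences in the remaining adducts were smaller. Damage-seq reads are few per gene, with a median over the 37 genes of 103 and 94 reads on both strands in the kidney libraries, whereas liver had 61 and 37, lung 77 and 80, and spleen 25 and 33. TS was lower than NTS per GG in 0 of 37 kidney genes, 8 liver genes, 7 lung genes and 3 spleen genes (edgeR quasi-likelihood test, 20845 genes), where 7.44%, 27.3%, 16.3% and 6.0% of all genes passed in this direction. The shares of the 37 genes that passed were 21.6% in liver, 18.9% in lung and 8.11% in spleen, near those of all genes. At an unadjusted p under 0.05 the count was 1 for kidney, 11 for both liver and lung, and 6 for spleen, where 17.9%, 31.9%, 24.1% and 16.7% of all genes were in kidney, liver, lung and spleen. TS was higher in 0 genes in each organ, and at an unadjusted p under 0.05 in 1 gene, in spleen, and no other tool was run. Without the first liver library 3 genes were lower in liver, and without the first or the second spleen library 1 or 0 were lower in spleen. The median log2 ratio was −0.15, −0.40, −0.34 and −0.51 for the 37 genes and −0.2, −0.35, −0.26 and −0.23 for all genes.

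Parp14, an ADP-ribosyltransferase of the macrophage response (chromosome 16, 35832874 to 35871544, minus strand), passed in 3 organs. It had 14 TS and 71 NTS reads and 17 and 40 in liver, 49 and 132 and 40 and 102 in lung, and 12 and 40 and 15 and 43 in spleen, with fewer TS than NTS reads in each library. The log2 ratios per GG were −1.60 ± 0.32, −1.18 ± 0.24 and −1.41 ± 0.34. In kidney it had 88 and 129 and 81 and 98 reads, a ratio of −0.21 ± 0.22. Irgm1, a GTPase that controls autophagy of pathogens, had 8 and 19 and 2 and 25 reads in liver and 12 and 41 and 21 and 47 in lung, at −2.20 ± 0.52 and −1.49 ± 0.38. Mx2 had 19 and 78 and 8 and 52 reads in liver, at −2.11 ± 0.33, and 115 and 99 and 80 and 76 in kidney, at 0.32 ± 0.23, with the direction opposite in the 2 organs and the kidney value not past the test.

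Ifih1, Stat2 and Xaf1, an antagonist of apoptosis inhibitors, also passed in liver and lung. Ifih1 had 27 TS and 91 NTS reads and 26 and 51 in liver, at −1.43 ± 0.27, and 62 and 114 and 57 and 136 in lung, at −1.10 ± 0.22. Its kidney reads were nearly even, at 95 and 76 and 103 and 104. Isg20 and Rtp4 passed in liver alone among the organs tested, Gbp2 in lung, and Zbp1 and Trim30a in spleen, where Zbp1 had 2 TS and 9 NTS reads and 7 and 32. Differences between organs in these ratios were not tested. Cxcl10, within Art3, had 7 TS and 2 NTS reads and 8 and 2 in liver, the one gene with a log2 ratio above 1 there (1.45 ± 0.96), which did not pass.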

How the data were processed

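RNA-seq, XR-seq and Damage-seq counts of 4 mouse organs were used. The authors deposited raw counts per gene, for XR-seq and Damage-seq 1 count for each strand. By their methods, these reads were trimmed (cutadapt), mapped to mm10 (BWA), freed of duplicates (Picard) and kept where a GG stood at the position of the adduct. RNA-seq came from libraries without strand information and was mapped by STAR and counted by featureCounts. Versions of these tools are not given in the sources used here. Removal of duplicates can lower counts where reads are dense, and the filter on mapping quality can remove reads of close paralogs.

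Groups were taken from the sample labels, which for lung and spleen RNA-seq were corrected by the submitters. Gene symbols, positions and lengths came from GENCODE M21, and GG dinucleotides of both strands were counted over each gene in GRCm38. RPKM used exon length and TMM library sizes. Tests used R 4.3.3 with edgeR 4.0.16 (filterByExpr, quasi-likelihood fit, glmTreat at a log2 fold change of 0.4, Benjamini-Hochberg adjustment over all genes tested). Kidney and liver responses were fitted on the organ alone, lung and spleen in 1 fit of all organs because their control pairs were summed. XR-seq and Damage-seq strands were compared within libraries with an offset for library size and GG. DESeq2 1.42.0, RLE size factors, no filter on low counts, other samples in the fit, a block on replicate number and leaving out each library were the alternatives. Scripts were tested on simulated counts. Intervals and floors of counts cover counting error only.

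The genes were listed by symbol, with no threshold on their values, but that list, the other lists and the tests were chosen with earlier results of these data known. All genes of the list may be named; in each organ those with the 4 most positive and the 4 most negative RNA changes, and the 3 with the highest and lowest XR-seq TS values, were given with their values. Each file of XR-seq and Damage-seq held 1 line without an identifier, which was left out. With 2 libraries per group, exact permutation tests could not reach a small p and were not used.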

Additional observations from a re-analysis of the deposited data

How the results depend on the processing

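Most counts of called genes kept within 1.5 times of their values under the alternatives run. For the RNA response, leaving out the first liver cisplatin library left 1 cisplatin sample and raised Ifit1, Oasl1 and Rsad2 to 1.4, 1.26 and 1.24 in log2. Counting each lung control library as a replicate, in a fit of lung alone, gave 4 genes called higher. A replicate block added to that fit gave 7 higher and 1 lower in lung, where 382 and 1532 of all 17007 genes were called. The change from 0 thus joins both choices, and the block changed no RNA response count of the 37 genes in the other organs. The numbers mark only 2 libraries per group, the correlation of same-numbered deviations was 0.435, 0.365, 0.0601 and 0.391 in kidney, liver, lung and spleen, and nothing in the labels ties them to an animal. With the control samples alone, RNA levels gave 2 lower in liver, and 3 higher and 1 lower in lung. Leaving out 1 library gave 3 to 7 lower in liver, and 4 to 8 higher and 3 to 6 lower in lung (the low ends without the second liver control and the second lung cisplatin library). Over the alternatives, all genes called higher and lower by treatment numbered 20 to 1715 in kidney (372 and 410 as reported), 0 to 1231 in liver (0 and 0), 0 to 1532 in lung (0 and 71) and 2 to 56 in spleen (24 and 5).

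For XR-seq strands, leaving out 1 liver library gave 15 to 17 genes with TS higher. For Damage-seq strands, it gave 3 to 6 with TS lower in liver (3 without the first library) and 0 to 1 in spleen. The test against 0 gave 11 in lung and 5 in spleen, and no GG offset gave 5 in spleen. For XR-seq by organ, library size alone gave 8 higher in liver, and leaving out 1 library gave 8 to 10 in liver (8 without the first) and 3 to 3 in lung. DESeq2 gave 3 higher and 2 lower in lung, and no filter on low counts gave 2 lower.

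Single genes turned sign without 1 library: Cxcl9 in kidney ranged from −1.09 to 0.83, and was 0.06 without the first cisplatin library. In liver, Ifit1 ranged from −0.52 to 1.40, Oas2 from −0.40 to 1.48 and Oasl1 from −0.50 to 1.26. In spleen, Ddx58 ranged from −0.38 to 0.03, Gbp3 from −0.46 to 0.05 and Trim30a from −0.54 to 0.13, with the positive values without the first cisplatin library. The causes were not tested. In kidney, the mean over libraries of the median log2 of RPKM plus a pseudocount was 1.82 with a pseudocount of 0.1 and 2.14 with 1. Depth limits Damage-seq, where a gene of the list had as few as 2 reads in a library, and XR-seq of the first kidney library, where 3 genes had 0 TS reads.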
